A study of Mus musculus with 6 samples.

Results

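Transcripts of death receptors and of the necroptosis machinery were compared in mouse embryonic fibroblasts (MEFs) with and without YME1L, named wild-type (WT) and Yme1l-/-. The 10 genes Fas, Tnfrsf10b, Tnfrsf1a, Fadd, Tradd, Casp8, Cflar, Ripk1, Ripk3 and Mlkl were chosen by name for their place in the pathway, with earlier results of these data known and with no threshold on a measured value, and each was found as 1 of the 51499 loci in the count table, none of them under a name shared with another gene. All 10 were among the 13867 loci with enough counts to be tested. Poly(A)-selected RNA was sequenced from 3 cultures of each genotype. The WT cells carry unrecombined Yme1l fl/fl alleles, the Yme1l-/- cells lack YME1L, a protease of the mitochondrial inner membrane, and cells of both genotypes were immortalized with SV40 large T antigen, which binds and inactivates p53. According to the study's methods, MEFs with floxed alleles were transduced with Cre recombinase and expanded as individual clones, so differences between genotypes and differences between clones cannot be told apart. The labels number the cultures but do not say whether they came from separate clones, so p-values measure the spread between these cultures, which may be technical.

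Death receptors are cell surface receptors of the tumour necrosis factor (TNF) receptor superfamily that carry a cytosolic death domain. Once bound by their ligands, FAS and the TRAIL receptor DR5 recruit the adaptor FADD and the initiator caspase-8, whose activity starts apoptosis and is held in check by cFLIP, a homologue of caspase-8 without catalytic activity. TNF receptor 1 recruits TRADD and the kinase RIPK1 instead, and mostly drives inflammatory gene expression. When caspase-8 is inactive, RIPK1 binds RIPK3 through a shared interaction motif (the RHIM), and RIPK3 phosphorylates MLKL, which then permeabilizes the plasma membrane in a lytic death called necroptosis. Fibroblasts have long served as a model of both forms of death.

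The libraries held between 33180867 and 49351107 counted fragments. Expression is given as CPM (counts scaled to a common library size, with TMM factors that correct for differences in RNA composition), and a gene was called changed at an adjusted p under 0.05 in edgeR's quasi-likelihood test. Yme1l1, the targeted gene, was at 20.8% of its WT level in the Yme1l-/- libraries. The 9 fibroblast markers summed to 10839 to 11402 CPM in WT and 6646 to 7133 CPM in Yme1l-/-. Of the 8 tested, 6 were called lower and 1, Col1a1, higher, while Thy1 had at most 6 fragments in any library. WT replicate 2 stood apart from the other WT libraries, with Col3a1 at 301 CPM against 86.3 and 91.1, Dcn at 7.85 CPM against 1.57 and 1.56, and a chi-square per degree of freedom of 35.7 and 38.5 against them, where they differed from each other by 12.9. In the same measure Yme1l-/- replicate 1 differed from the other Yme1l-/- libraries by 21.7 and 17.1, where they differed from each other by 8.71. It held 34624075 counted fragments, against 49351107 and 49157459 in the other Yme1l-/- libraries. The 8 members called below kept their call and direction without WT replicate 2, and also without Yme1l-/- replicate 1. Macrophage and blood cell markers summed to 4.17 to 4.52 CPM in WT and 7.38 to 8.01 CPM in Yme1l-/-, and of these 7 markers Ptprc had at most 1 fragment and Adgre1 none in any library. The other 5 were higher in every Yme1l-/- library than in any WT library, Cd68 with a log2 fold change of 1.04 and Cd14 of 0.37 (both called), and Csf1r, Itgam and Lyz2 at up to 29 fragments (not tested). The 4 endothelial markers summed to 0.888 to 1.44 CPM in WT and 1.67 to 2.00 CPM in Yme1l-/-, with Kdr, the 1 that was tested, called higher. The 4 epithelial markers summed to 32.9 to 34.9 CPM in WT, nearly all of it Krt18, and to 0.294 to 0.657 CPM in Yme1l-/-. The part of these marker shifts in the results was not tested.

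The sequences around the starts of the members were searched for binding motifs of factors known to act on genes of this pathway. RefSeq promoter windows (build GRCm38.p6, around the transcription start) were found for 8 of the 10 members, and not for Tnfrsf10b and Tradd. An interferon-stimulated response element (ISRE), searched on both strands as GAAA and a second GAAA 2 bases further, stood in the windows of Cflar and Ripk1, where 3.44% of 32851 windows of the same length held it. The interferon-gamma activated sequence (GAS), searched as TTC and GAA 3 bases apart, stood in the windows of Tnfrsf1a, Ripk1 and Fas, and in 8.30% of all windows. A kappa-B motif (GGGA and TTCC 2 bases apart, 1.47% of windows) and a p53 core motif (CATG and a second CATG after 6 bases, 0.712% of windows) stood in none of the 8. The stretches with a match are shown on the plus strand with the matching bases in capitals. In Ripk1 the GAS and the ISRE share 3 bases at the transcription start of a RefSeq window, which lies inside the gene as annotated from 34002363, and a second GAS lies 100 to 108 bases before that start. The GAS of Tnfrsf1a likewise lies inside the gene as annotated from 125349362. These are matches of letters and not measured binding sites.
Fas, chr19:34290546-34290594, GAS: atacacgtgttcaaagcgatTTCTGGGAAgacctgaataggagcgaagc
Ripk1, chr13:34002843-34002898, GAS and ISRE: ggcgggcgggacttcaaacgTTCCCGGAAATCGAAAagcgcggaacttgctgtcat
Ripk1, chr13:34002746-34002794, GAS: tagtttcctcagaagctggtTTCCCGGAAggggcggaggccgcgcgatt
Tnfrsf1a, chr6:125349473-125349507, GAS: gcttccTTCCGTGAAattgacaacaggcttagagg
Cflar, chr1:58711477-58711526, ISRE: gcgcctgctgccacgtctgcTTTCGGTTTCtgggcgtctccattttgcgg

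In Yme1l-/- cells 6 of the 10 members were called higher (Fas, Tnfrsf1a, Tradd, Ripk1, Ripk3 and Mlkl) and 2 lower (Fadd and Cflar), while Tnfrsf10b and Casp8 were not called. Ripk3 and Fas were the members with the largest increases, and Cflar was the only member that fell by at least 2-fold. Calls were frequent in this comparison. Over all tested loci 67.7% were called, 33.6% higher and 34.1% lower, so 8 calls among 10 genes do not by themselves set the members apart. The libraries of the genotypes did not overlap for 8 of the 10 members and for 71.9% of all tested loci. The median log2 fold change of the members was 0.38, and that of all tested loci was -0.0041.

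**Figure D1:**
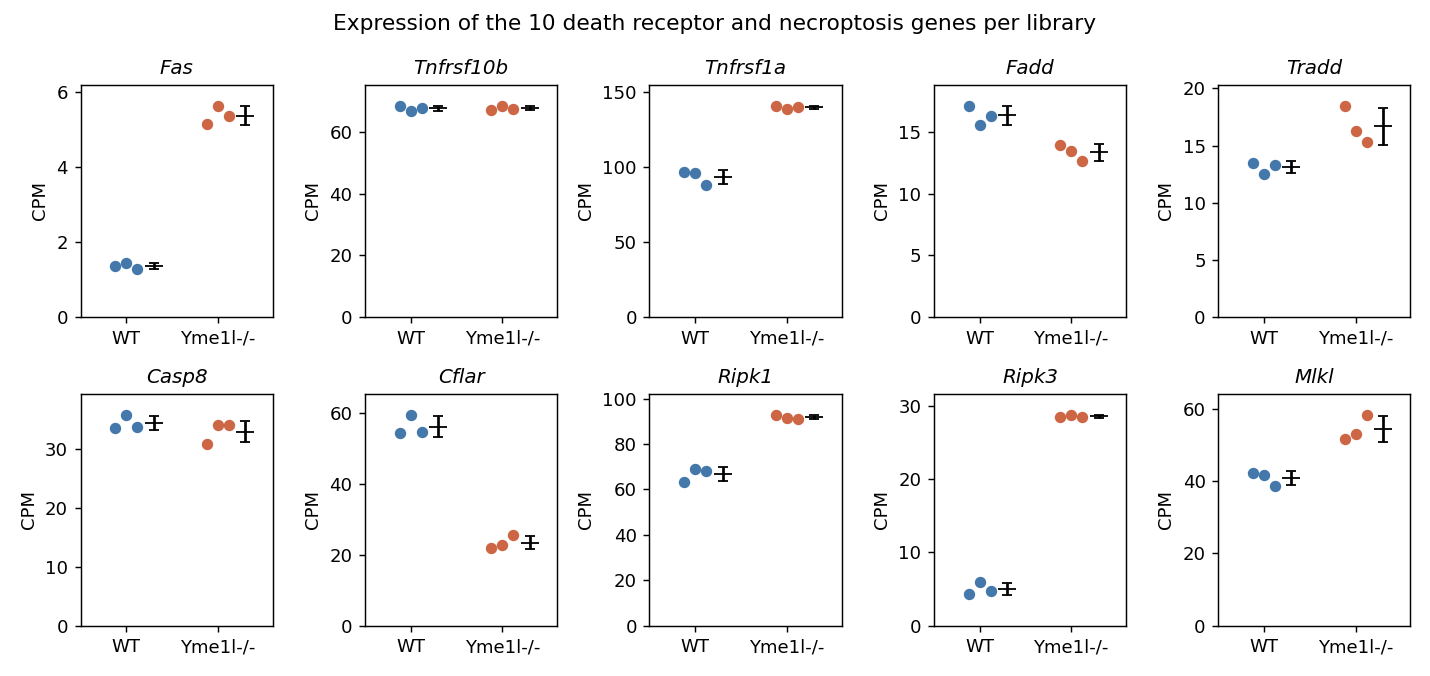
Expression in CPM (vertical axes, each starting at 0) of the 10 members in the 3 WT libraries (blue points) and the 3 Yme1l-/- libraries (orange points), with the mean and SD as black bars. Ripk3 and Fas stand 5.73-fold and 3.95-fold higher in Yme1l-/-, Cflar lies at 41.8% of WT, and the points of Tnfrsf10b and Casp8 overlap between genotypes.

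The receptors differed widely in level and in response. Fas (chr19:34290659-34327770), the receptor of FAS ligand, was counted with 45, 47 and 42 fragments in WT against 180, 284 and 273 in Yme1l-/-. This was 1.36, 1.44 and 1.29 CPM in WT and 5.14, 5.63 and 5.36 CPM in Yme1l-/-, so that every Yme1l-/- library lay far above every WT library. Its log2 fold change was 1.98 ± 0.13 (SE), with an adjusted p of 1.66e-07 by edgeR. Fewer cells that express a gene and less RNA per cell cannot be told apart in such bulk libraries.

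Tnfrsf1a (chr6:125349362-125362484), which encodes TNF receptor 1, was at 96.3, 95.9 and 87.7 CPM in WT and at 140.5, 138.7 and 139.7 CPM in Yme1l-/-. The genotypes did not overlap, and the 3 Yme1l-/- cultures were nearly equal. The log2 fold change was 0.58 ± 0.05 (SE, edgeR adjusted p 1.06e-06). Chromosome 6 as a whole was shifted upwards, by a median of 0.34 over 697 tested loci. After subtraction of chromosome medians the log2 fold change of Tnfrsf1a was 0.24, still a call (edgeR adjusted p 0.00122).

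Tnfrsf10b (chr14:69767472-69784411), which encodes the only signalling TRAIL receptor of the mouse, was at 68.4, 66.9 and 67.8 CPM in WT and at 67.4, 68.5 and 67.5 CPM in Yme1l-/-. The libraries of both genotypes were interleaved. Its log2 fold change was 0.0017 ± 0.042 (SE), with a 95% interval from -0.091 to 0.095 and an edgeR adjusted p of 0.974. The loci of chromosome 14 had a median of -0.17. After subtraction of chromosome medians Tnfrsf10b was called higher, at 0.17 (edgeR adjusted p 0.00414).

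The adaptors went in opposite directions, by small amounts. Fadd (chr7:144567355-144582463), the bridge between death receptors and caspase-8, was at 17.1, 15.6 and 16.4 CPM in WT and at 14.0, 13.5 and 12.6 CPM in Yme1l-/-. All Yme1l-/- libraries were below all WT libraries, and the log2 fold change was -0.29 ± 0.07 (SE, edgeR adjusted p 0.00434). The deposited Fadd locus reaches beyond the 3' end of the annotated gene, which lies at 144577318 on the minus strand. An antisense transcript, Faddos, overlaps the gene, so that part of the Fadd counts may belong to other transcripts. Tradd (chr8:105258286-105264609), the adaptor of TNF receptor 1, was at 13.5, 12.5 and 13.3 CPM in WT and at 18.5, 16.2 and 15.3 CPM in Yme1l-/-. The groups did not overlap, although the Yme1l-/- cultures of Tradd were spread more than those of WT. Its log2 fold change was 0.34 ± 0.08 (SE, edgeR adjusted p 0.00360), and 0.66 with chromosome medians removed, since chromosome 8 had a median of -0.32.

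Caspase-8 and its inhibitor came apart. Casp8 (chr1:58795374-58847503) was at 33.7, 35.9 and 33.9 CPM in WT and at 30.9, 34.1 and 34.1 CPM in Yme1l-/-. The libraries overlapped, with a log2 fold change of -0.060 ± 0.058 (SE), a 95% interval from -0.19 to 0.069 and an edgeR adjusted p of 0.385. Cflar (chr1:58711508-58758884), which encodes cFLIP and lies close to Casp8, was at 54.2, 59.4 and 54.4 CPM in WT and at 22.0, 22.6 and 25.6 CPM in Yme1l-/-. Every Yme1l-/- library was below the lowest WT library, with a log2 fold change of -1.26 ± 0.07 (SE, edgeR adjusted p 2.77e-08). The long and short forms of cFLIP differ in function and are not separated in a count per locus.

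Within each library the ratio of Casp8 to Cflar counts can be taken without any scaling. On the log2 scale it was -0.69, -0.73 and -0.68 in WT against 0.49, 0.59 and 0.42 in Yme1l-/-. Counts of Cflar exceeded those of Casp8 in every WT library and fell short of them in every Yme1l-/- library, where the ratio was 2.30-fold higher. The difference of the means was 1.20 on the log2 scale, with an exact two-sided permutation p of 0.1, the smallest that 3 libraries against 3 allow. Since counts are not per length, the sign of the ratio says nothing of which transcript or protein is in excess. In the authors' per-length values (FPKM, below) Casp8 lay above Cflar in both genotypes. These were 18.6 against 16.5 in WT and 17.8 against 7.76 in Yme1l-/-.

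**Figure D2:**
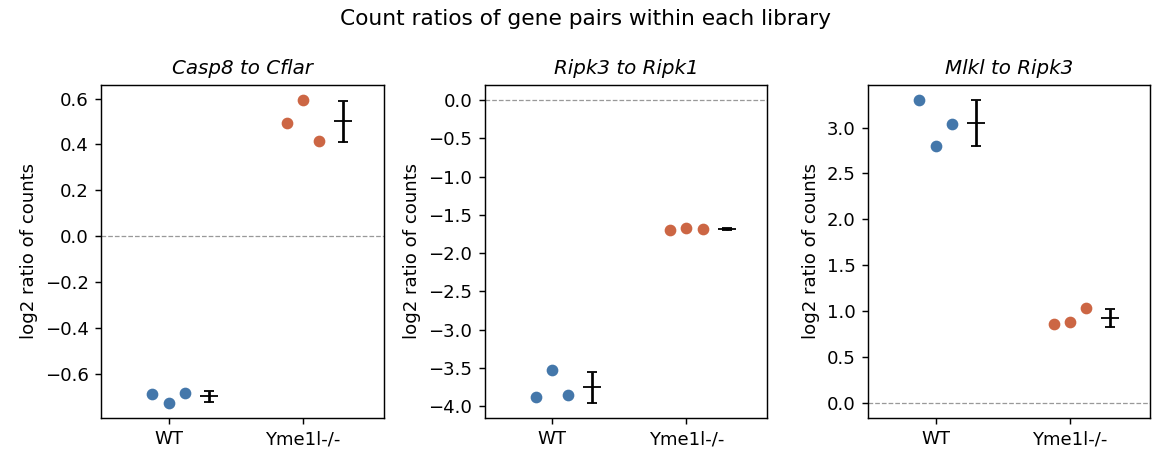
Log2 ratio of counts within each library (vertical axes) for Casp8 to Cflar, Ripk3 to Ripk1 and Mlkl to Ripk3, with WT libraries in blue, Yme1l-/- libraries in orange, and the mean and SD as black bars. None of the 3 ratios overlaps between genotypes, and the differences of the means are 1.20, 2.07 and -2.12. The ratios restate the fold changes of their genes, and ratios of other gene pairs were not computed.

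The necroptosis kinases rose unequally. Ripk3 (chr14:55784995-55788865) was counted with 142, 195 and 154 fragments in WT against 998, 1451 and 1449 in Yme1l-/-. In CPM these were 4.29, 5.96 and 4.72 in WT and 28.5, 28.8 and 28.4 in Yme1l-/-. The WT cultures varied, with a coefficient of variation of 17.4%, whereas the Yme1l-/- cultures differed by 0.616%, and the gap between genotypes was much larger than either. The log2 fold change was 2.52 ± 0.10 (SE, edgeR adjusted p 3.26e-09). Without WT replicate 2, the WT library with the highest value, it was 2.66.

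Ripk1, which encodes the kinase that links TNF receptor 1 to survival, apoptosis and necroptosis, was at 63.4, 68.8 and 68.2 CPM in WT and at 92.8, 91.5 and 91.1 CPM in Yme1l-/-. The groups were separate, with a log2 fold change of 0.46 ± 0.05 (SE, edgeR adjusted p 5.62e-06). The deposited Ripk1 locus (chr13:33917918-34037147) starts before the annotated gene at 34002363 and the annotated gene overlaps the processed pseudogenes Gm17083 and Gm17084 and, on the opposite strand, Serpinb6a, so that part of its counts may belong to other transcripts. Whether the counting used strand is not given in the sources used here.

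Mlkl (chr8:111311797-111338177), whose product is the executioner of necroptosis, was at 42.2, 41.6 and 38.7 CPM in WT and at 51.7, 53.01 and 58.3 CPM in Yme1l-/-. All Yme1l-/- values lay above all WT values. The log2 fold change was 0.41 ± 0.06 (SE, edgeR adjusted p 7.97e-05). It was 0.73 once the median of chromosome 8 was removed.

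The ratio of Ripk3 to Ripk1 counts was -3.89, -3.53 and -3.85 on the log2 scale in WT and -1.70, -1.67 and -1.68 in Yme1l-/-. It was thus 4.21-fold higher in Yme1l-/-. The ratio of Mlkl to Ripk3 counts was 3.30, 2.80 and 3.04 on the log2 scale in WT and 0.86, 0.88 and 1.03 in Yme1l-/-, a 4.35-fold lower value. For both ratios the libraries of the genotypes were separate, with an exact two-sided permutation p of 0.1. The 3 ratio tests, adjusted together, cannot go below that value either. These ratios restate the fold changes of their genes, and both contain Ripk3. How often ratios of other gene pairs separate the genotypes was not computed.

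Levels were compared between members per length with the FPKM values of the authors' table, which gives 1 combined value per genotype. In WT, Tnfrsf1a stood highest at 46.8 FPKM, followed by Ripk1 at 24.9, Tnfrsf10b at 22.3, Mlkl at 22.2, Casp8 at 18.6, Cflar at 16.5, Tradd at 8.98, Fadd at 4.24, Ripk3 at 3.48 and Fas at 1.15 FPKM. Tnfrsf10b and Mlkl, and likewise Fadd and Ripk3, were neighbours in this order that did not differ beyond the spread of the libraries, which was carried over from their CPM. In Yme1l-/- the order was Tnfrsf1a at 70.1, Ripk1 at 32.3, Mlkl at 29.8, Tnfrsf10b at 22.4, Casp8 at 17.8, Ripk3 at 16.3, Tradd at 11.6, Cflar at 7.76, Fas at 4.31 and Fadd at 3.47 FPKM. There every neighbouring pair was separated by more than the spread of its libraries. Ripk3 moved from the ninth place to the sixth, and Cflar from the sixth to the eighth. Fas remained among the lowest members in both genotypes.

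Genes with expression profiles closest to those of Fas and Ripk3 were sought over the 6 libraries, by the Euclidean distance between log2 CPM values centred on each gene's mean. Closest to Fas were Rtp4 (distance 0.122), Tap2 (0.136) and Ifi27 (0.152), with log2 fold changes of 1.92, 1.87 and 1.88. All 3 are known as interferon-induced genes. Closest to Ripk3 were Papss2 (0.106), Adh7 (0.146) and Slc43a3 (0.165), with log2 fold changes of 2.55, 2.54 and 2.49. The profiles consist mainly of the difference between genotypes, so the distance reflects the size of that difference.

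The members lie on 7 chromosomes, and their changes were set beside those of the 5 tested loci on either side. Around Fas the 10 flanking loci had a median log2 fold change of 0.031, around Ripk3 of 0.024 and around Cflar of -0.082, so these 3 members departed from the median of their surroundings. Casp8 and Cflar stand among each other's flanking loci. Around Fas 3 of the flanking loci were called higher and 2 lower, around Ripk3 3 and 4, and around Cflar 1 and 2. Single flanking loci exceeded the member: the highest was at 2.55 around Fas (Papss2) and at 3.16 around Ripk3. Around Tnfrsf1a, in contrast, 9 of the 10 flanking loci were called higher, with a median of 0.75, which exceeds the change of Tnfrsf1a itself. Around Ripk1 7 were called higher and 2 lower, with a median of 0.90. The flanks of Fadd had a median of -0.31, close to the -0.29 of Fadd. The flanks of Mlkl went the other way, with a median of -0.34 and 6 of 10 called lower.

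**Figure D3:**
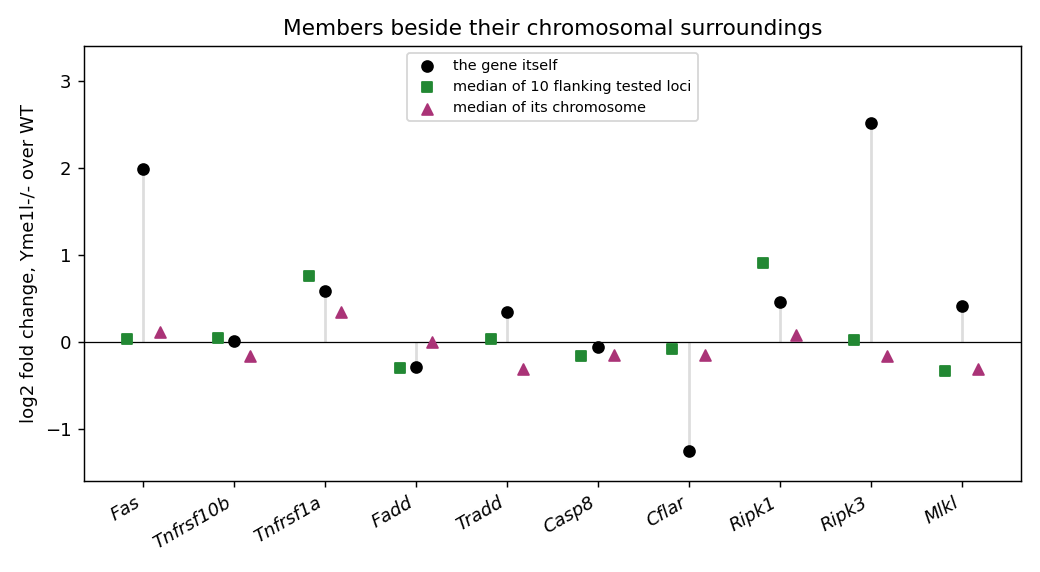
Log2 fold change of Yme1l-/- over WT (vertical axis) for each member (black circles), the median of the 10 tested loci flanking it (green squares) and the median of all tested loci of its chromosome (purple triangles). Fas, Ripk3 and Cflar lie away from both medians, and Tnfrsf1a, Ripk1 and Fadd have flanks that moved in their own direction.

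The other genes of the pathway were taken from a list of 54 symbols written from general knowledge. Of the 46 that were tested, 22 were called higher and 16 lower in Yme1l-/-, with a median log2 fold change of 0.036. This was 82.6% called, against 67.7% of all tested loci, and in the groups by role that follow the counts of calls stand against the same 33.6% called higher and 34.1% called lower over all loci. Of these calls 7 were at least 2-fold higher and 3 at least 2-fold lower. In the list 4 genes were counted in loci merged with other genes.

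The listed ligands of the TNF receptor superfamily were almost undetected, apart from Tnfsf12. Fasl had at most 4 fragments in any library, Tnf at most 3, Lta at most 4, Ltb at most 7 and Tnfsf10, which encodes TRAIL, at most 1, and no fragment of Tnfsf14 was counted. None of these 6 could be tested, and at this depth a difference in them was not detectable. Tnfsf12, which encodes TWEAK, was counted together with its neighbour Tnfsf13, and this locus rose by 1.55 ± 0.07 (log2 fold change ± SE) from 9.98 ± 0.398 to 29.3 ± 0.933 CPM (SD, n = 3).

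Of 9 other receptors tested, 6 were called lower, against 34.1% of all loci, and 1, the lymphotoxin beta receptor gene Ltbr (0.60 ± 0.05, log2 fold change ± SE), was called higher. Ltbr lies near Tnfrsf1a and was at 0.25 after the median of chromosome 6 was subtracted. Those that fell by at least 2-fold were Tnfrsf22, Tnfrsf11b and Tnfrsf23. Of the mouse decoy receptors of TRAIL, Tnfrsf22 had 744, 636 and 764 fragments in WT and 88, 162 and 134 in Yme1l-/-, which left 12.9% of the WT level, and Tnfrsf23 had 633, 588 and 612 fragments in WT and 198, 289 and 270 in Yme1l-/-, which left 29.9%. Their log2 fold changes were -2.96 ± 0.12 and -1.74 ± 0.08 (SE). Tnfrsf22 and Tnfrsf23 are similar neighbours on chromosome 7, so fragments may have been exchanged between them. Their falls may therefore not be separate results. Tnfrsf11b, which encodes the soluble decoy osteoprotegerin, fell by 2.31 ± 0.31 (log2 fold change ± SE) from a low level of 40 to 71 fragments in WT. The 3 decoys that can bind TRAIL were thus called lower, while Tnfrsf10b was not called. Tnfrsf1b, which encodes TNF receptor 2, fell by 0.63 ± 0.05 (log2 fold change ± SE), opposite to Tnfrsf1a.

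Of the genes of the TNF receptor 1 complex, 13 were tested, of which 7 were called higher and 4 lower (33.6% and 34.1% of all loci). The 3 subunits of the linear ubiquitin ligase LUBAC, which stabilizes the complex, were all called higher, with log2 fold changes of 1.03 ± 0.06 for Sharpin, 0.82 ± 0.05 for Rnf31 and 0.54 ± 0.05 for Rbck1 (SE). Rnf31 was counted in a locus merged with Irf9, an interferon signalling gene, so its own change is not known. Sharpin lies on chromosome 15, whose median was 0.59, and was at 0.44 with chromosome medians removed. The ubiquitin ligase genes Traf2 (0.45 ± 0.05) and Birc2 (0.44 ± 0.06) were also higher, whereas Map3k7, which encodes the kinase TAK1, was lower (-0.29 ± 0.04, log2 fold change ± SE). Among 6 genes of deubiquitinases and other brakes, 3 were called higher and 2 lower. Tnip1, which encodes an A20-binding protein, rose by 1.02 ± 0.06 and Tnfaip3, which encodes A20 itself, by 0.41 ± 0.06, while Cyld was at -0.33 ± 0.05 (log2 fold change ± SE). Cyld lies on chromosome 8 and was at -0.013 after the median of that chromosome was subtracted. With chromosome medians removed Tnip1 was at 0.67, Tnfaip3 at 0.11, Birc2 at 0.80 and Map3k7 at -0.20.

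**Figure D4:**
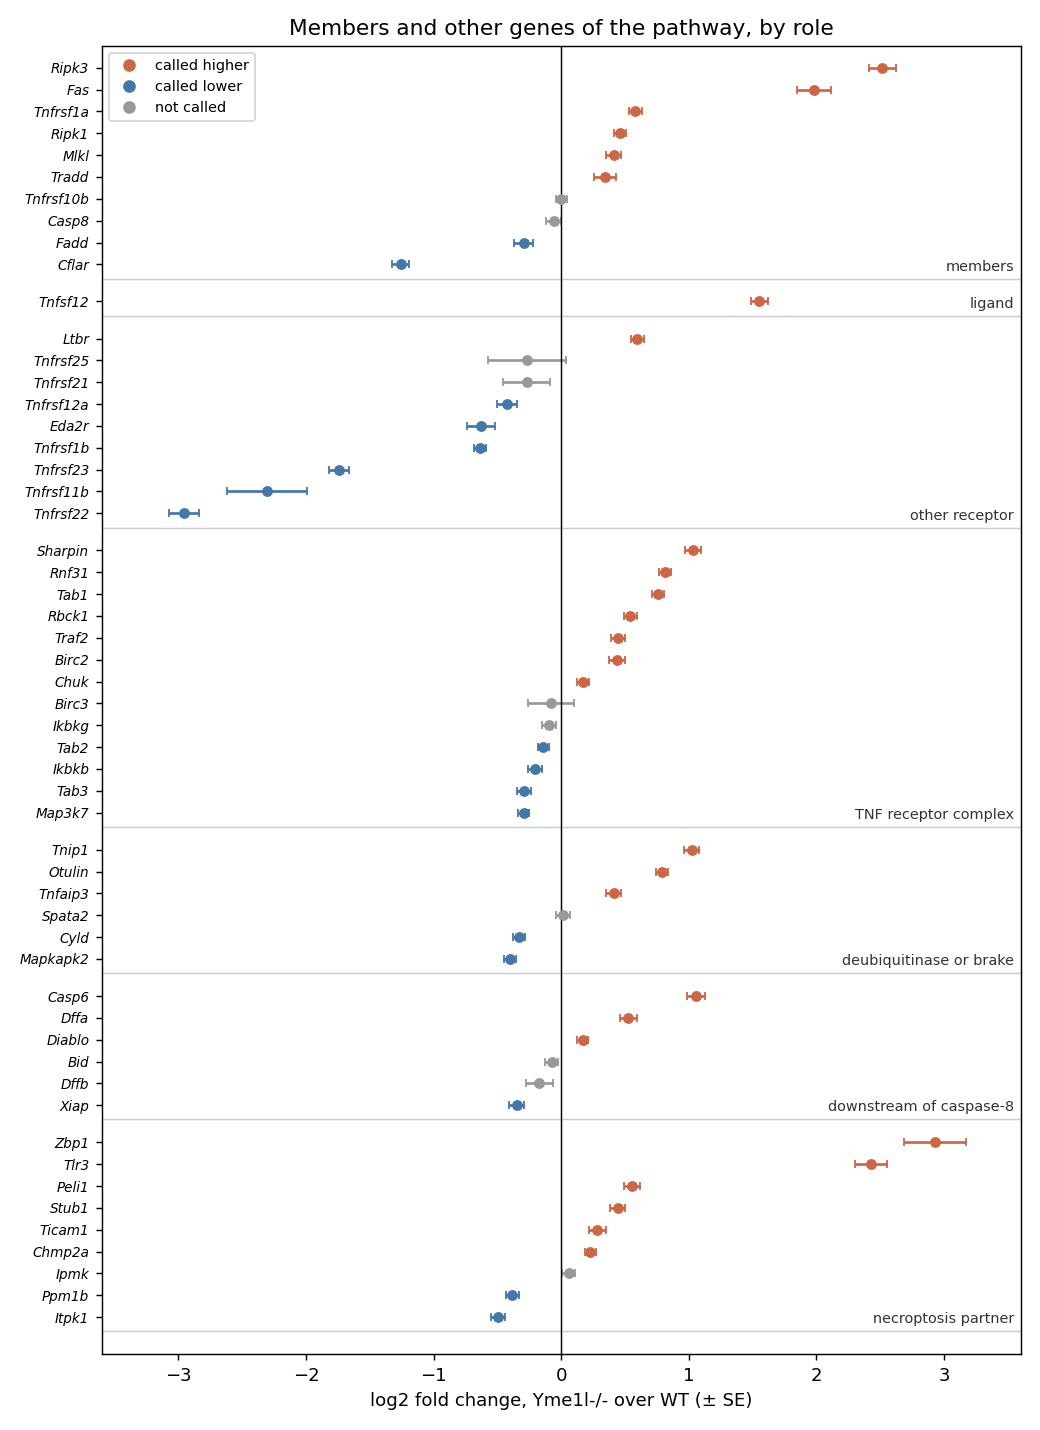
Log2 fold change of Yme1l-/- over WT with its SE (horizontal axis) for the 10 members and the tested genes of the pathway list that are reported singly, grouped by role, with genes called higher in orange, called lower in blue and not called in grey. Ripk3, Zbp1 and Tlr3 lie above 2, and the decoy receptor genes Tnfrsf22 and Tnfrsf11b lie below -2.

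Downstream of caspase-8, 4 of 8 genes were called higher and 2 lower (33.6% and 34.1% of all loci). Casp6, which encodes a caspase that acts late in apoptosis, had 285, 279 and 273 fragments in WT against 628, 887 and 890 in Yme1l-/-. The groups were far apart, with a log2 fold change of 1.06 ± 0.07 (SE, edgeR adjusted p 1.92e-07). Xiap, an inhibitor of caspases, was called lower at -0.35 ± 0.06 (SE), and was at -0.14 after the median of the X chromosome was subtracted. Bid, which carries the signal of caspase-8 to mitochondria, was not called, at -0.075 with a 95% interval from -0.18 to 0.035.

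Among 9 genes that act with RIPK3 or MLKL, 6 were called higher and 2 lower (33.6% and 34.1% of all loci). Zbp1, which encodes a nucleic acid sensor that engages RIPK3 through its RHIM, had 13, 24 and 13 fragments in WT and 111, 204 and 224 in Yme1l-/-. The groups were far apart, with a log2 fold change of 2.93 ± 0.24 (SE, edgeR adjusted p 1.00e-06), although the WT value rests on few fragments. Tlr3, which encodes a receptor for double-stranded RNA, had 51, 60 and 54 fragments in WT and 292, 451 and 497 in Yme1l-/-, a log2 fold change of 2.43 ± 0.13 (SE, edgeR adjusted p 2.13e-08). Ticam1, which encodes the RHIM adaptor TRIF downstream of TLR3, rose by 0.28 ± 0.07 (log2 fold change ± SE), and was at 0.12 after the median of chromosome 17 was subtracted. Ppm1b, a phosphatase gene known to restrain RIPK3, was lower at -0.38 ± 0.05 (log2 fold change ± SE). Macrophages also express Ripk3, Mlkl, Tlr3 and Zbp1. Of the 7 macrophage and blood cell markers 5 were higher in Yme1l-/- without overlap, with a sum of at most 8.01 CPM, and Ptprc and Adgre1 were at 1 fragment or none. Their part in these values was not tested.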

How the data were processed

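The authors prepared stranded poly(A) libraries, aligned read pairs to mm10 with HISAT2 2.0.4, assembled transcripts with StringTie 1.3.3 and tested genotypes with Cuffdiff 2.2.1 (versions as in the methods and submitters' processing notes). The authors deposited raw fragment counts per locus and, in a second table, 1 combined FPKM value per genotype. The log2 ratios and p-values there were not used. Handling of fragments that map to several places is not given in the sources used here.

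Fragment counts went into edgeR 4.0.16 under R 4.3.3, with filterByExpr at minimum count 10 and TMM factors. The robust quasi-likelihood fit had no covariates, with Benjamini-Hochberg adjustment over 13867 loci. The same fit was also run on simulated counts, with results not reported here. Each SE was the fold change divided by the square root of its F statistic. Alternatives were RLE and upper-quartile scaling, DESeq2 1.42.0, other filters, the replicate number as a block, omission of each culture, and removal of chromosome medians. The members and lists were chosen with earlier results of these data known, and flanking loci were examined after the values were seen. Named pathway genes are those called with at least 2-fold change, plus others chosen after their values were seen. Protein sequences were not used here. Some pathway genes are included in counts but not reported singly here.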

Additional observations from a re-analysis of the deposited data

How the results depend on the processing

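Under the 13 alternatives the number of members called stayed at 8 or 9, with 6 or 7 higher and 2 lower, and the number of other pathway genes called lay between 31 and 39. The 8 members called kept their direction and call under every alternative. Tnfrsf10b had a log2 fold change so close to 0 that its sign changed, to -0.0028 with RLE scaling, -0.0040 with no filter on low counts, -0.0027 with DESeq2, and to between -0.0096 and 0.0075 when single cultures were left out. With chromosome medians removed Casp8 was at 0.094 and not called, and Tnfrsf10b was at 0.17 and called. With the replicate block, 9794 of the loci and 8 of the members were called and Fas was at 1.98. The replicate numbers did not pair the cultures, whose deviations from the genotype means correlated at 0.14, -0.094 and 0.048. The ratios had 8 alternatives of their own, namely omission of each culture, the replicate block and 0.5 counts added. Removal of chromosome medians was not among them. Over these 8 alternatives the ratio differences stayed between 1.153 and 1.24 (Casp8 to Cflar), 2.01 and 2.19 (Ripk3 to Ripk1) and -2.24 and -1.995 (Mlkl to Ripk3). Paired ratio tests with the replicate block gave an exact p of 0.25, the smallest that 3 pairs allow. Depth limits statements on the ligands.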
